A study of Mus musculus with 12 samples.

Results

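Injury markers of the kidney tubule were followed in mouse models of polycystic kidney disease in which *Pkd2* either kept or lacked the miR-17 binding motif of its 3′-UTR. The 8 genes, *Havcr1*, *Lcn2*, *Spp1*, *Clu*, *Sox9*, *Vcam1*, *Cd44* and *Plin2*, were taken by name from a table of read counts for 54532 genes, as markers of injured or dedifferentiated tubule epithelium. All 8 were found in the table, and all 8 were among the 24642 genes expressed highly enough to be tested. No measured value entered their choice, but they were chosen with earlier results of these data known.

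RNA was sequenced from whole kidneys of 12 C57BL/6 mice (by the study's methods, on a C57BL/6 J background) aged 18 days, 3 in each of 4 groups. Every mouse carried one *Pkd1* RC allele, a hypomorphic allele that leaves reduced polycystin-1 function, and a second, floxed *Pkd1* allele. In the noncystic groups the floxed allele was intact (*Pkd1* RC/+), with *Pkd2* +/+ in mice 19, 20 and 21 and with *Pkd2* Δ17/Δ17 in mice 22, 23 and 24. In the cystic groups the Ksp-Cre transgene had deleted the floxed allele in the tubule cells in which it is active (*Pkd1* RC/-). These groups had *Pkd2* +/+ in mice 25, 26 and 27 and *Pkd2* Δ17/Δ17 in mice 28, 29 and 30. The Δ17 allele lacks the miR-17 motif in every cell that carries it, and the Cre transgene separates the cystic from the noncystic groups along with the loss of *Pkd1*.

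Tubule epithelium that is damaged by toxins, lack of blood flow or the pressure of a growing cyst loses transport functions and takes on a repair state, in which genes that are silent or low in the healthy nephron are expressed. The best known of these is *Havcr1*, which encodes kidney injury molecule-1, a receptor of the proximal tubule that binds and engulfs dying cells. *Lcn2* is expressed by distal segments after injury, and both proteins are measured in urine as signs of tubule damage. The other markers reach into different parts of the response: secreted proteins (*Spp1*, *Clu*), a transcription factor of repairing cells (*Sox9*), adhesion molecules (*Vcam1*, *Cd44*) and a coat protein of lipid droplets (*Plin2*).

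Total counts ran from 18800307 to 24453033 reads per mouse. Levels are given as CPM, read counts relative to the size of the library, which was corrected with TMM factors. These were 0.933 to 0.973 in noncystic and 1.04 to 1.08 in cystic kidneys. Adjusted p-values come from the quasi-likelihood test of edgeR, by the Benjamini-Hochberg method over all genes tested, and a gene was called when its value was under 0.05. *Pkd2*, the edited gene, had a level of 326 ± 16.6 CPM in the cystic mice with *Pkd2* Δ17/Δ17, and of 226 ± 11.3 CPM in those with *Pkd2* +/+ (SD over 3 mice) (log2 fold change 0.53, edgeR adjusted p = 0.00263). In noncystic kidneys it stood at 278 ± 7.64 CPM and 210 ± 13.9 CPM in the same order, without overlap of the groups (log2 fold change 0.40, edgeR adjusted p = 0.772). DESeq2 called this difference (adjusted p = 0.00151), as did edgeR without a cutoff on low counts (0.00898). The latter setting gave far lower adjusted p-values elsewhere at nearly unchanged fold changes, as given in the last section. *Pkd1* was not called in any comparison, and stood at 59.6 ± 8.11 CPM in noncystic and 71.6 ± 5.33 CPM in cystic *Pkd2* +/+ kidneys, where reads from outside the floxed exons and from the RC allele are counted too. Of the transcripts that define kidney tissue, all 10 proximal tubule markers, all 4 thick ascending limb markers and all 5 podocyte markers had reads in all 12 mice. The 3 mice of a group differed by more than counting noise in every pair, with a chi-square per degree of freedom of 8.89 or more, and none was a repeat of another. Scaling by library totals in place of the TMM factors would raise the median log2 fold change of cystic against noncystic *Pkd2* +/+ kidneys by 0.157, and the fold changes given here are relative to the TMM scale.

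In *Pkd2* +/+ mice, 6 of the 8 markers rose in cystic against noncystic kidneys and none fell. These were *Lcn2*, *Clu*, *Havcr1*, *Cd44*, *Sox9* and *Spp1*, in order of their log2 fold changes from 4.06 down to 0.80, and in each of the 6 every cystic mouse was above every noncystic mouse. *Vcam1* and *Plin2* were not called. Of all genes tested, 17% were called higher and 14.1% lower in this comparison, 31.1% in all, and 22.2% were higher without overlap of the groups. The median log2 fold change was 1.22 over the 8 markers and 0.02 over all genes tested. In whole-kidney RNA, fewer cells of a type and less RNA per cell cannot be told apart.

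**Figure D1:**
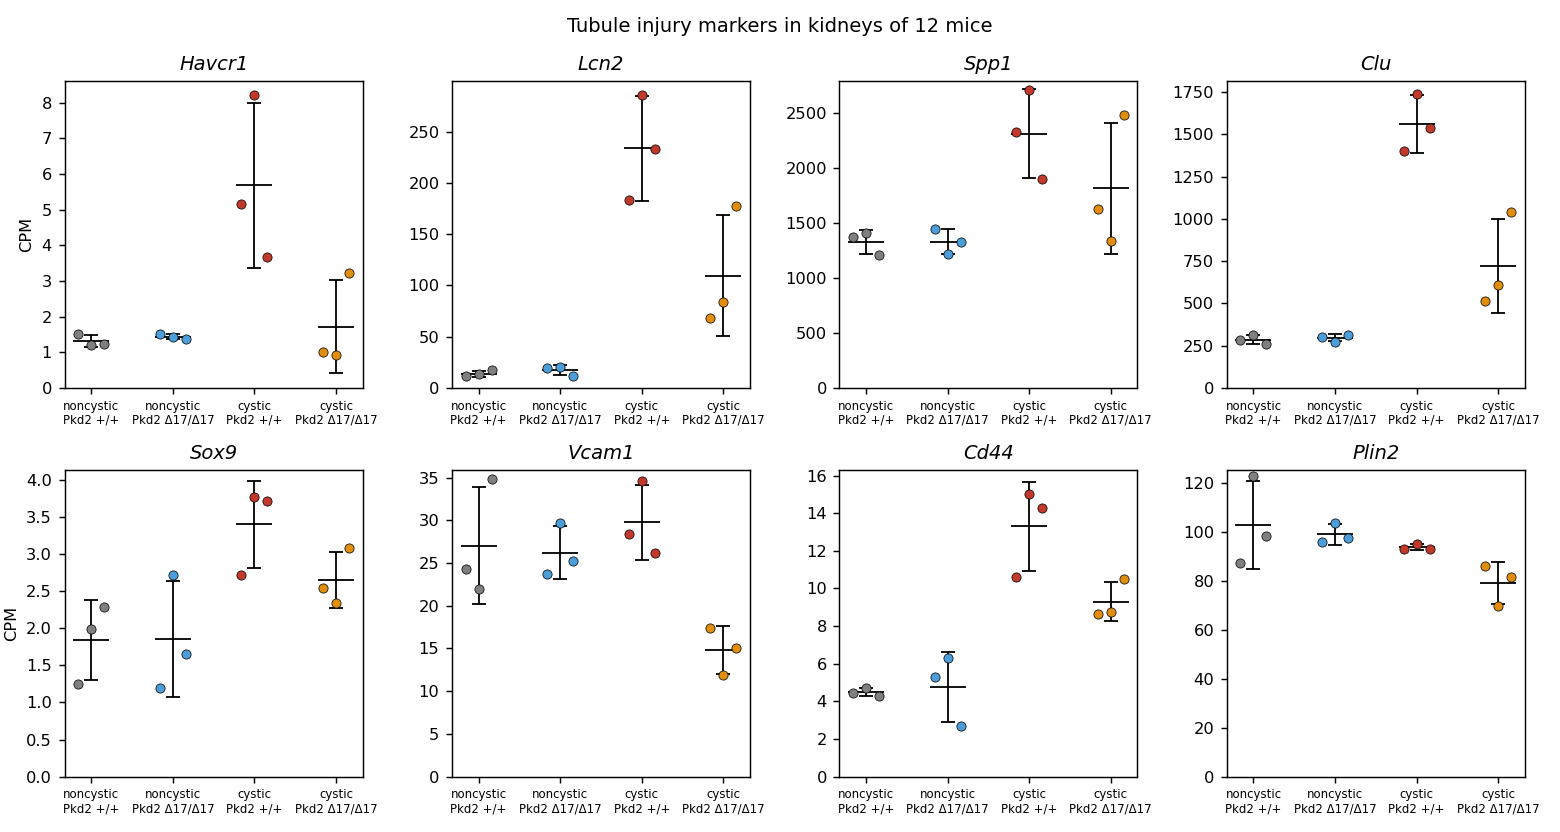
CPM of the 8 injury markers on linear axes from 0, with 1 point for each mouse and the mean ± SD of 3 mice in black, for the 4 groups along the horizontal axis. *Lcn2* lies between 11.6 and 20.7 CPM in the 6 noncystic mice and between 183 and 286 CPM in the cystic *Pkd2* +/+ mice, and *Vcam1* is lowest in the 3 cystic *Pkd2* Δ17/Δ17 mice.

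*Havcr1* (chr11:46735080-46779578, forward strand in the GRCm38 build) was scarce in noncystic kidneys, where it stood at 1.505, 1.197 and 1.22 CPM in the *Pkd2* +/+ mice and at 1.53, 1.42 and 1.38 CPM in the *Pkd2* Δ17/Δ17 mice. In cystic *Pkd2* +/+ kidneys it reached 5.16, 8.22 and 3.67 CPM in mice 25, 26 and 27. In cystic *Pkd2* Δ17/Δ17 kidneys it was 1.01, 0.928 and 3.22 CPM in mice 28, 29 and 30. Mice 28 and 29 were thus below all 6 noncystic mice, while mouse 30 was above them and just under the lowest cystic *Pkd2* +/+ mouse. The log2 fold change of cystic against noncystic kidneys was 2.11 (SE 0.40, a 4.32-fold rise, edgeR adjusted p = 0.000627) with *Pkd2* +/+ and 0.26 (SE 0.42, edgeR adjusted p = 0.738) with *Pkd2* Δ17/Δ17. Between the cystic groups *Havcr1* was 3.29-fold lower with *Pkd2* Δ17/Δ17 (log2 fold change -1.72, SE 0.39, edgeR adjusted p = 0.0307). These values rest on 19 to 168 reads per mouse. Without mouse 30 the 0.26 became -0.57 and the -1.72 became -2.54, and without mouse 26, 28 or 29 the difference between the cystic groups was not called, with log2 fold changes from -1.45 to -1.36. It was not called either with *Xist* as a covariate (edgeR adjusted p = 0.0617) or in a fit of the cystic groups alone (0.124).

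*Lcn2* (chr2:32384633-32388252, reverse strand) encodes lipocalin-2 (NGAL), a secreted protein that binds siderophores and with them iron. It stood at 11.6, 13.1 and 17.2 CPM in noncystic *Pkd2* +/+ mice, 19.6, 20.7 and 12.05 CPM in noncystic *Pkd2* Δ17/Δ17 mice, 183, 286 and 233 CPM in cystic *Pkd2* +/+ mice and 68.3, 83.4 and 177 CPM in cystic *Pkd2* Δ17/Δ17 mice. All 6 cystic mice were above all 6 noncystic mice, and the highest cystic *Pkd2* Δ17/Δ17 mouse, mouse 30, came just under the lowest cystic *Pkd2* +/+ mouse. The rise was 16.7-fold with *Pkd2* +/+ (log2 fold change 4.06, SE 0.32, edgeR adjusted p = 1.07e-07), the largest among the 8 markers. With *Pkd2* Δ17/Δ17 it was 6.29-fold (log2 fold change 2.65, SE 0.30, edgeR adjusted p = 9.95e-06). The difference between the cystic groups was -1.09 on the log2 scale (SE 0.27) and stood close to the threshold, with an edgeR adjusted p of 0.0479. It was not called with DESeq2 (adjusted p = 0.0684), with library totals in edgeR (0.0569), with *Xist* as a covariate (0.0516), in a fit of the cystic groups alone (0.134), or without mouse 26, 27, 28 or 29 (0.134 to 0.224). Of the receptors known for lipocalin-2, *Slc22a17* stood at 112 ± 30.4 CPM in cystic and 96.5 ± 8.49 CPM in noncystic *Pkd2* +/+ kidneys (SD over 3 mice, log2 fold change 0.22, edgeR adjusted p = 0.274). Without mouse 26 it was called higher (log2 fold change 0.41, edgeR adjusted p = 0.00578). *Lrp2*, which encodes megalin, the endocytic receptor with which the proximal tubule retrieves filtered lipocalin-2 and many other proteins, fell from 1100.3 ± 153 to 460.1 ± 88.5 CPM (log2 fold change -1.26, edgeR adjusted p = 5.1e-06), and was higher in cystic *Pkd2* Δ17/Δ17 kidneys at 715 ± 116 CPM (log2 fold change 0.64 against cystic *Pkd2* +/+, edgeR adjusted p = 0.0308). This call of *Lrp2* was lost in a fit of the cystic groups alone (edgeR adjusted p = 0.0787) and without mouse 26, 27, 28 or 29 (0.0934 to 0.166).

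*Clu* (chr14:65968483-65981547, forward strand) encodes clusterin, a secreted chaperone that binds misfolded proteins. Its levels were 283, 313 and 258 CPM in noncystic *Pkd2* +/+ mice, 299, 273 and 314 CPM in noncystic *Pkd2* Δ17/Δ17 mice, 1402, 1741 and 1537 CPM in cystic *Pkd2* +/+ mice and 511, 611 and 1038 CPM in cystic *Pkd2* Δ17/Δ17 mice. The cystic groups lay apart from each other as well as from the noncystic mice, with the cystic *Pkd2* Δ17/Δ17 mice between. The rise was 5.48-fold with *Pkd2* +/+ (log2 fold change 2.45, SE 0.19, edgeR adjusted p = 1.21e-07) and 2.44-fold with *Pkd2* Δ17/Δ17 (log2 fold change 1.29, SE 0.19, edgeR adjusted p = 8.69e-05). Between the cystic groups *Clu* was 2.17-fold lower with *Pkd2* Δ17/Δ17 (log2 fold change -1.12, SE 0.19, edgeR adjusted p = 0.00606), which a fit of the cystic groups alone did not call (0.056). Of the receptors that bind clusterin, *Lrp8*, which encodes the apolipoprotein E receptor 2, rose from 1.08 ± 0.326 to 4.78 ± 1.19 CPM in cystic *Pkd2* +/+ kidneys (log2 fold change 2.14, edgeR adjusted p = 0.000188). *Trem2*, a lipid and clusterin receptor of macrophages, rose from 1.61 ± 0.389 to 5.72 ± 0.670 CPM (log2 fold change 1.83, edgeR adjusted p = 1.9e-05).

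*Spp1*, which encodes osteopontin, a secreted phosphoprotein that binds integrins and CD44 and hinders crystal growth in urine, was the most abundant of the 8 markers in every group. Its levels were 1370, 1407 and 1207 CPM in noncystic *Pkd2* +/+ mice, 1444, 1217 and 1326 CPM in noncystic *Pkd2* Δ17/Δ17 mice, 2325, 2710 and 1901 CPM in cystic *Pkd2* +/+ mice and 1626, 1340.5 and 2480 CPM in cystic *Pkd2* Δ17/Δ17 mice. The cystic *Pkd2* Δ17/Δ17 mice spanned the range from within the noncystic mice (mouse 29) to within the cystic *Pkd2* +/+ mice (mouse 30). Only the rise with *Pkd2* +/+ was called (log2 fold change 0.80, SE 0.18, edgeR adjusted p = 0.00215). The values with *Pkd2* Δ17/Δ17 (0.45, SE 0.18, edgeR adjusted p = 0.081) and between the cystic groups (-0.35, SE 0.18, edgeR adjusted p = 0.394) were not. With library totals in place of the TMM factors the difference in *Pkd2* Δ17/Δ17 mice was called (0.61, edgeR adjusted p = 0.016), as it was with limma-trend (0.0285), without a cutoff on low counts (0.000253) and without mouse 29 (0.0152). The difference between the cystic groups was called without mouse 30, at -0.64 (edgeR adjusted p = 0.0236), and without the cutoff (0.0254). Calls without the cutoff are weak evidence, for the reason given in the last section. Among the integrin genes whose products bind osteopontin, *Itgb1* and *Itga4* rose with log2 fold changes of 0.25 (edgeR adjusted p = 0.0372) and 0.59 (0.0266) in cystic *Pkd2* +/+ kidneys, and both calls were lost without mouse 19, 21 or 26, with *Xist* as a covariate and in a fit of these groups alone. *Itgav* (-0.16, edgeR adjusted p = 0.156) and *Itgb3* (0.40, edgeR adjusted p = 0.128) were not called, although *Itgb3* was with library totals (0.0321) and *Itgav* without mouse 20 (0.0184).

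*Spp1* is also the neighbour of the edited gene. In the mouse build GRCm38 it lies on the forward strand of chromosome 5, at 104435118 to 104441050, and ends 18.4 kb before *Pkd2* starts at 104459450, with no annotated gene between them. It is the only one of the 8 markers whose longest annotated 3′-UTR holds a match to the miR-17 seed, searched as the letters GCACTTT on the transcript strand. Of the 21005 genes with an annotated 3′-UTR, 11.8% hold such a match. The sequences below, which show the miRNA and the reference sites, are those of RefSeq for the miRNA and of the GRCm38 genome with the GENCODE M21 annotation for both 3′-UTRs. Capitals mark the seed in the miRNA and its complement in the sites, and the *Pkd2* site is the motif that the Δ17 allele lacks.
miR-17-5p: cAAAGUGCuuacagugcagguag
Pkd2, chr5:104503811-104503837, forward strand: ataattttctGCACTTTaatttatttt
Spp1, chr5:104440805-104440831, forward strand: aaaagcttctGCACTTTgcttctgttc
The *Pkd2* match starts at nucleotide 133 after the stop codon and is followed by an A, which makes it an 8-mer site, and the *Spp1* match starts at nucleotide 197 and is not. The *Spp1* site is present in all 4 groups, and *Spp1* did not differ between the *Pkd2* genotypes in noncystic kidneys beyond the spread of the mice (log2 fold change 0.00, SE 0.18, 95% interval -0.37 to 0.38). *Spp1* shares exonic sequence with *Gm42793* on the same strand and *Vcam1* with *Gm43109* on the opposite strand, so that some of their reads could belong to those genes.

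*Sox9* (chr11:112782224-112787760, forward strand) encodes a transcription factor that is switched on in tubule cells that survive injury and divide. It was as scarce as *Havcr1*, at 22 to 79 reads per mouse. Its levels were 1.25, 1.99 and 2.29 CPM in noncystic *Pkd2* +/+ mice, 1.199, 2.73 and 1.65 CPM in noncystic *Pkd2* Δ17/Δ17 mice, 2.72, 3.77 and 3.72 CPM in cystic *Pkd2* +/+ mice and 2.55, 2.34 and 3.08 CPM in cystic *Pkd2* Δ17/Δ17 mice. The cystic *Pkd2* +/+ mice were all above the noncystic mice of that genotype, but mouse 23, which was noncystic, reached the level of mouse 25. The log2 fold change with *Pkd2* +/+ was 0.88 (SE 0.30, edgeR adjusted p = 0.0352). This call was lost without mouse 19, 20, 26 or 27, with adjusted p-values from 0.072 to 0.175. The value with *Pkd2* Δ17/Δ17 was 0.51 (SE 0.31, edgeR adjusted p = 0.269). Of 7 other Sox genes, 4 rose in cystic *Pkd2* +/+ kidneys and none fell, where 17% of all genes tested were called higher. *Sox4*, which acts in the developing nephron, went from 40.0 ± 4.25 to 113 ± 20.3 CPM (log2 fold change 1.495, edgeR adjusted p = 5.66e-07), *Sox11* from 3.62 ± 0.183 to 11.1 ± 1.76 CPM (1.61, edgeR adjusted p = 2.44e-05) and *Sox12* from 53.4 ± 6.85 to 83.3 ± 7.08 CPM (0.64, edgeR adjusted p = 5.8e-05). None of the 7 was called between the cystic groups, where *Sox4* stood at 104 ± 11 CPM with *Pkd2* Δ17/Δ17.

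*Vcam1* (chr3:116109949-116129688, reverse strand) encodes an adhesion molecule for leukocytes that is displayed by activated endothelium and by proximal tubule cells that fail to repair. Its levels were 24.3, 22 and 34.8 CPM in noncystic *Pkd2* +/+ mice, 23.7, 29.7 and 25.2 CPM in noncystic *Pkd2* Δ17/Δ17 mice, 28.4, 34.7 and 26.2 CPM in cystic *Pkd2* +/+ mice and 17.4, 11.9 and 15.1 CPM in cystic *Pkd2* Δ17/Δ17 mice. The first 3 groups overlapped, and the cystic *Pkd2* Δ17/Δ17 mice were below all 9 other mice. Cystic and noncystic *Pkd2* +/+ kidneys were not told apart (log2 fold change 0.14, SE 0.17, 95% interval -0.22 to 0.49, edgeR adjusted p = 0.6). In *Pkd2* Δ17/Δ17 mice *Vcam1* was 1.77-fold lower in cystic kidneys (log2 fold change -0.82, SE 0.17, edgeR adjusted p = 0.00202), and it was 2.01-fold lower in cystic *Pkd2* Δ17/Δ17 than in cystic *Pkd2* +/+ kidneys (log2 fold change -1.005, SE 0.17, edgeR adjusted p = 0.00714). Without mouse 29 the latter was -0.87 and just missed the threshold (edgeR adjusted p = 0.0512). Of its integrin partners, which sit on leukocytes, *Itga4* stood at 6.30 ± 0.313 CPM and 5.87 ± 1.41 CPM in these cystic groups (log2 fold change 0.11, edgeR adjusted p = 0.867). Another, *Itgb7*, stood at 1.66 ± 0.334 CPM with *Pkd2* Δ17/Δ17 and 3.48 ± 0.404 CPM with *Pkd2* +/+. Its values did not overlap between these groups, but it was not called.

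*Cd44* (chr2:102811141-102901665, reverse strand) encodes the main cell surface receptor for hyaluronan, which also binds osteopontin. It stood at 4.46, 4.73 and 4.27 CPM in noncystic *Pkd2* +/+ mice, 5.29, 6.33 and 2.70 CPM in noncystic *Pkd2* Δ17/Δ17 mice, 10.6, 15.0 and 14.3 CPM in cystic *Pkd2* +/+ mice and 8.65, 8.74 and 10.5 CPM in cystic *Pkd2* Δ17/Δ17 mice. All 6 cystic mice were above all 6 noncystic mice. The cystic groups did not overlap either, although mouse 30 came close under mouse 25. The rise was 2.96-fold with *Pkd2* +/+ (log2 fold change 1.56, SE 0.23, edgeR adjusted p = 5.97e-05) and 1.95-fold with *Pkd2* Δ17/Δ17 (log2 fold change 0.96, SE 0.23, edgeR adjusted p = 0.00591). The difference between the cystic groups was -0.51 (SE 0.22, 95% interval -0.98 to -0.05) and was not called (edgeR adjusted p = 0.289). Of the proteins that tie CD44 to the cytoskeleton, *Msn* (moesin) rose from 180 ± 7.70 to 257 ± 28.4 CPM in cystic *Pkd2* +/+ kidneys (log2 fold change 0.51, edgeR adjusted p = 0.000134). *Rdx* (radixin) fell from 246 ± 6.13 to 208 ± 9.58 CPM (-0.24, edgeR adjusted p = 0.0447), and the hyaluronidase gene *Hyal2* from 76.0 ± 8.39 to 61.3 ± 1.83 CPM (-0.31, edgeR adjusted p = 0.0087). Neither was called when library totals replaced the TMM factors (edgeR adjusted p = 0.469 and 0.165), and *Rdx* was not called with *Xist* as a covariate (0.0535) or without mouse 20, 21, 25 or 27 (0.0654 to 0.127).

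*Plin2* (chr4:86648386-86670060, reverse strand) encodes perilipin-2, the coat protein of lipid droplets in cells other than adipocytes. It was the least variable of the 8 markers. Its levels were 87.4, 122.9 and 98.6 CPM in noncystic *Pkd2* +/+ mice, 95.8, 103.8 and 97.8 CPM in noncystic *Pkd2* Δ17/Δ17 mice, 93.3, 95.4 and 93.0 CPM in cystic *Pkd2* +/+ mice and 86.0, 69.7 and 81.9 CPM in cystic *Pkd2* Δ17/Δ17 mice. The cystic *Pkd2* +/+ mice lay inside the noncystic range, and the cystic *Pkd2* Δ17/Δ17 mice were the 3 lowest of the 12. The log2 fold change of cystic against noncystic kidneys was -0.13 (SE 0.11, edgeR adjusted p = 0.389) with *Pkd2* +/+, and its sign turned when library totals replaced the TMM factors (0.03). With *Pkd2* Δ17/Δ17 it was -0.32 (SE 0.11, edgeR adjusted p = 0.035), which library totals moved to -0.17 (edgeR adjusted p = 0.262, and 0.251 with limma-trend). This call was also lost without mouse 23, 24, 29 or 30 (edgeR adjusted p = 0.0609 to 0.166).

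Of 17 other genes of lipid droplets, 14 fell in cystic *Pkd2* +/+ kidneys and none rose, with a median log2 fold change of -1.02. The share called lower over all genes tested was 14.1%. The acyltransferase gene *Dgat2*, which makes triglyceride, fell from 248 ± 60.7 to 70.6 ± 10.1 CPM (log2 fold change -1.81, edgeR adjusted p = 1.94e-06). *Mgll*, which encodes the lipase of monoglycerides, fell from 144 ± 20.4 to 71.1 ± 2.95 CPM (-1.02, edgeR adjusted p = 7.38e-06), and *Fitm2*, needed for droplets to bud, from 36.0 ± 1.78 to 20.1 ± 2.17 CPM (-0.84, edgeR adjusted p = 9e-06). Of the perilipin family, *Plin1*, *Plin4* and *Plin5* fell, with log2 fold changes of -2.25, -1.53 and -2.40 (edgeR adjusted p = 0.014, 0.00607 and 0.000239), and *Plin3* was not called (0.01, edgeR adjusted p = 0.96). The call of *Plin1* was lost with DESeq2 (adjusted p = 0.0515), with limma-trend (0.0988) and without mouse 20 (0.0739). *Plin1* belongs to fat cells, and the fat cell gene *Adipoq* and the brown fat gene *Ucp1*, both looked up after the values of the list had been seen, moved with it. *Adipoq* was at 23.9 to 55.2 CPM and 24.1 to 29.3 CPM in the noncystic groups and at 5.92 to 14.6 CPM and 0.488 to 16.2 CPM in the cystic groups, *Pkd2* +/+ first. The part of adipose tissue in the fall of the list was not tested. Between the cystic groups none of the 17 was called.

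In *Pkd2* Δ17/Δ17 mice, *Lcn2*, *Clu* and *Cd44* rose in cystic against noncystic kidneys, *Vcam1* and *Plin2* fell, and *Havcr1*, *Spp1* and *Sox9* were not called. Of all genes tested, 12.8% were called higher and 10.2% lower, 23.1% in all. The median log2 fold change over the 8 markers was 0.48, against -0.00371 over all genes tested. In each of the 5 called markers the cystic and noncystic mice did not overlap, which held for 37.9% of all genes tested.

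Between the cystic groups, 4 of the 8 markers fell with *Pkd2* Δ17/Δ17 and none rose. They were *Havcr1*, *Clu*, *Lcn2* and *Vcam1*, each between 2.01-fold and 3.29-fold lower. Of all genes tested, 1.08% were called lower and 1.16% higher, 2.24% in all. The values of all 3 cystic *Pkd2* Δ17/Δ17 mice were below those of all 3 cystic *Pkd2* +/+ mice for 6 markers, the 4 called and *Cd44* and *Plin2*, which held for 10.4% of all genes tested. The log2 fold changes of the 8 markers were all below 0, from -1.72 to -0.25, with a median of -0.76 against -0.000918 over all genes tested. *Spp1*, *Sox9*, *Cd44* and *Plin2* had 95% intervals of -0.72 to 0.03, -0.97 to 0.27, -0.98 to -0.05 and -0.47 to -0.02. The count of 4 depended on the mice: it was 1 without mouse 29, 2 without mouse 26 or without mouse 28, and 5 without mouse 30. This comparison and that of cystic with noncystic *Pkd2* +/+ kidneys share the cystic *Pkd2* +/+ mice, and their values for a gene are therefore not independent of each other.

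In noncystic kidneys none of the 8 markers was called between the *Pkd2* genotypes by edgeR, nor by limma-trend or DESeq2, and none had an unadjusted p under 0.05. Of all genes tested, 0.00406% were called by edgeR, and 6.3% had an unadjusted p under 0.05. The log2 fold changes of the markers ran from -0.05 (*Plin2*) to 0.32 (*Lcn2*), with a median of 0.03. The widest 95% interval was that of *Havcr1*, from -0.79 to 1.06, and the narrowest that of *Plin2*, from -0.28 to 0.17.

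**Figure D2:**
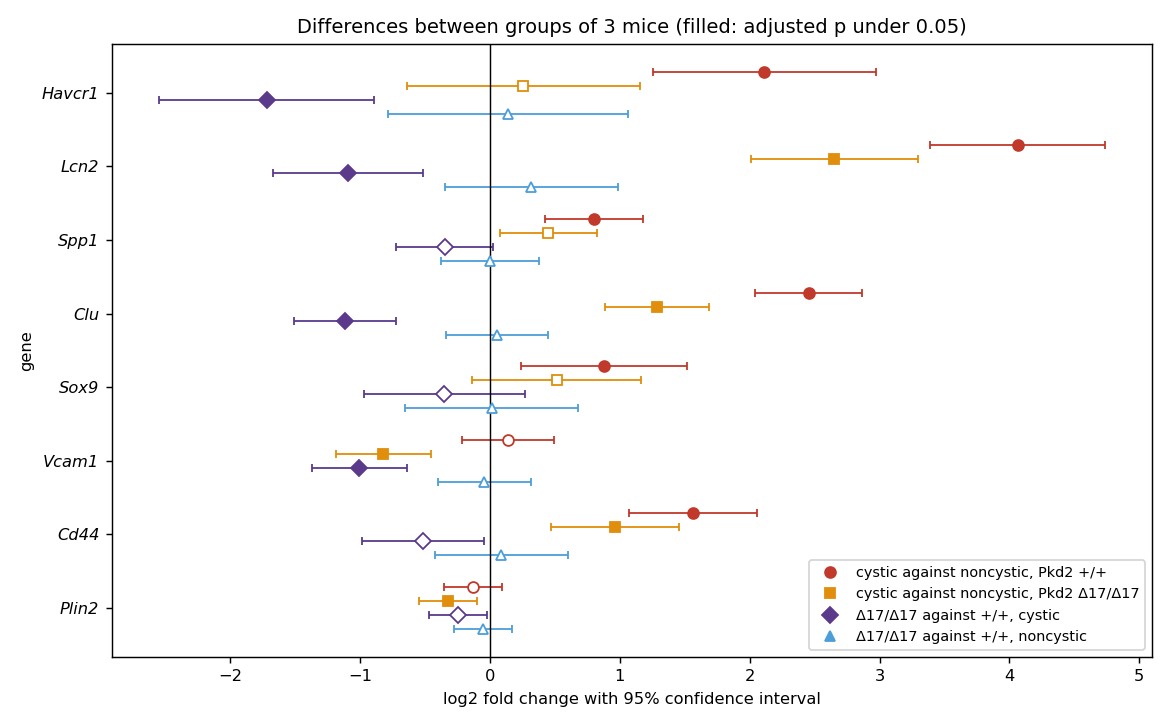
Log2 fold changes of the 8 injury markers on the horizontal axis, with 95% confidence intervals, in 4 comparisons of 3 against 3 mice, with filled symbols for an adjusted p under 0.05. The 4 differences called between the cystic groups, those of *Havcr1*, *Lcn2*, *Clu* and *Vcam1*, lie between -1.72 and -1.005, and those between the noncystic groups lie between -0.05 and 0.32.

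The difference between the effects of cystic disease in *Pkd2* Δ17/Δ17 and in *Pkd2* +/+ mice was tested as an interaction. For all 8 markers the rise was smaller, or the fall larger, with *Pkd2* Δ17/Δ17, with interaction values from -1.86 (*Havcr1*) to -0.19 (*Plin2*) on the log2 scale and a median of -0.78 against -0.01 over all genes tested. None of the 8 passed the edgeR threshold, at adjusted p-values from 0.156 to 0.876. An unadjusted p under 0.05 was found for 4, which were *Clu* (-1.17, edgeR adjusted p = 0.156), *Vcam1* (-0.96, edgeR adjusted p = 0.231), *Lcn2* (-1.41, edgeR adjusted p = 0.33) and *Havcr1* (-1.86, edgeR adjusted p = 0.37). Of all genes tested, 0.0122% were called and 8.31% had an unadjusted p under 0.05. DESeq2 called 1 of the markers, *Vcam1*, at an adjusted p of 0.0317. Without mouse 30, edgeR called *Clu* (-1.53), *Lcn2* (-1.94) and *Havcr1* (-2.68), with adjusted p-values of 0.00111, 0.0142 and 0.0311. The interaction includes the cystic *Pkd2* +/+ mice, which 2 of the comparisons above also use.

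The spread within a group was uneven. Among the cystic *Pkd2* Δ17/Δ17 mice, mouse 30 had the highest level of 6 of the 8 markers and mouse 29 the lowest of 5. The highest mouse exceeded the lowest 3.23-fold for *Havcr1*, 2.59-fold for *Lcn2*, 2.03-fold for *Clu* and 1.85-fold for *Spp1*. For *Vcam1* and *Plin2*, mouse 28 was the highest and mouse 30 lay between the others. Among the cystic *Pkd2* +/+ mice, mouse 26 was the highest for all 8 markers, by 2.21-fold over the lowest for *Havcr1* and by 1.03-fold for *Plin2*. In noncystic kidneys the same ratio was at most 1.78 with *Pkd2* +/+ (*Sox9*), and at most 2.30 with *Pkd2* Δ17/Δ17 (*Cd44*).

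**Figure D3:**
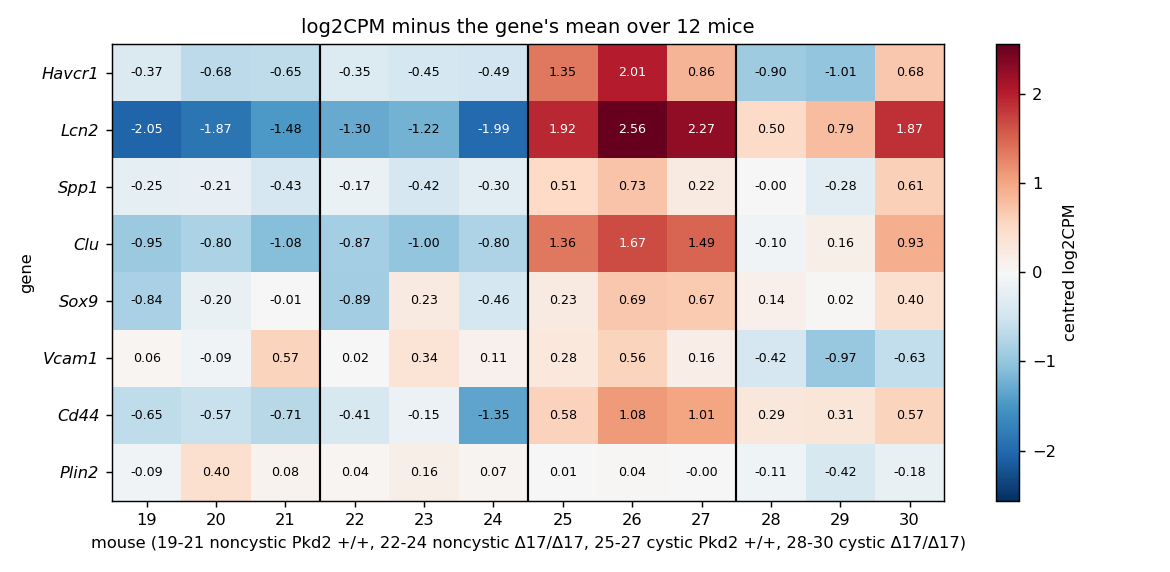
Log2CPM of each of the 8 markers (rows) in each of the 12 mice (columns), minus that gene's mean over the mice, printed in the cells and coloured on the scale at the right, with lines between the groups. *Lcn2* spans the widest range, from -2.05 in mouse 19 to 2.56 in mouse 26, and mouse 30 stands above mice 28 and 29 in *Havcr1*, *Lcn2*, *Spp1*, *Clu*, *Sox9* and *Cd44*.

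Divided by the length of their exons, so that genes can be set side by side, the levels of the 8 markers spread widely. In noncystic *Pkd2* +/+ kidneys *Spp1* stood at 806 ± 64.6 CPM per kilobase, *Clu* at 82.8 ± 7.97, *Plin2* at 29.3 ± 5.17, *Lcn2* at 5.33 ± 1.12 and *Vcam1* at 3.05 ± 0.768, in each case without overlap with the next. *Cd44* (0.662 ± 0.0339), *Havcr1* (0.566 ± 0.0742) and *Sox9* (0.446 ± 0.130) followed, and neighbours in this order overlapped. The order was the same in noncystic *Pkd2* Δ17/Δ17 kidneys. In cystic *Pkd2* +/+ kidneys *Lcn2*, at 89.3 ± 19.5 CPM per kilobase, had passed *Plin2*, at 26.7 ± 0.369, and *Havcr1*, at 2.46 ± 1.004, had reached the range of *Vcam1*, at 3.36 ± 0.493. In cystic *Pkd2* Δ17/Δ17 kidneys *Lcn2*, at 41.8 ± 22.5, was still above *Plin2*, at 22.5 ± 2.41, and *Vcam1*, *Cd44*, *Havcr1* and *Sox9* overlapped from neighbour to neighbour.

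Other genes of injury and repair, in a list of 40 that was drawn up from general knowledge of the field with earlier results known, mostly rose. In cystic *Pkd2* +/+ kidneys 32 rose and 2 fell, with a median log2 fold change of 1.17. The shares called over all genes tested were 17% higher and 14.1% lower. The keratin gene *Krt18* rose from 101 ± 24.4 to 499 ± 63.8 CPM (log2 fold change 2.30, edgeR adjusted p = 1.23e-07) and *Dcdc2a*, which encodes a ciliary doublecortin domain protein, from 45.9 ± 5.62 to 346 ± 7.58 CPM (2.91, edgeR adjusted p = 1.93e-09). The 2 that fell were *Itgb8*, an integrin gene (-0.83, edgeR adjusted p = 5.11e-06), and *Igfbp7*, a marker of cell cycle arrest (-0.42, edgeR adjusted p = 0.0148, 0.0849 with library totals and 0.0639 without mouse 25). Between the cystic groups 8 of the 40 were called lower with *Pkd2* Δ17/Δ17 and none higher, with a median of -0.49. The share called lower over all genes tested was 1.08%. The complement gene *C3* was at 156, 118 and 117 CPM in cystic *Pkd2* +/+ mice and at 21.05, 14.5 and 57.4 CPM in cystic *Pkd2* Δ17/Δ17 mice (log2 fold change -2.07, SE 0.36, edgeR adjusted p = 0.0081). The 3 cystic *Pkd2* Δ17/Δ17 mice were all below the others, and 2 of them were below all 6 noncystic mice, whose lowest stood at 22.3 CPM. *Ccl2*, which encodes the chemokine that draws monocytes, was at 2.80, 6.12 and 2.68 CPM and at 1.01, 1.17 and 1.59 CPM in the same groups (-1.61, SE 0.34, edgeR adjusted p = 0.0209). It was not called in a fit of the cystic groups alone (edgeR adjusted p = 0.0777) or without mouse 26, 28 or 29 (0.0995 to 0.132). *Krt7*, a keratin of the collecting duct and of cyst linings, was at 726, 879 and 847 CPM and at 414, 570 and 603 CPM (-0.63, SE 0.12, edgeR adjusted p = 0.0157). The call of *Krt7* was lost in a fit of the cystic groups alone (edgeR adjusted p = 0.0781) and without mouse 27 or 28 (0.0691 and 0.0604), and that of *C3* without mouse 28 (0.0588).

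**Figure D4:**
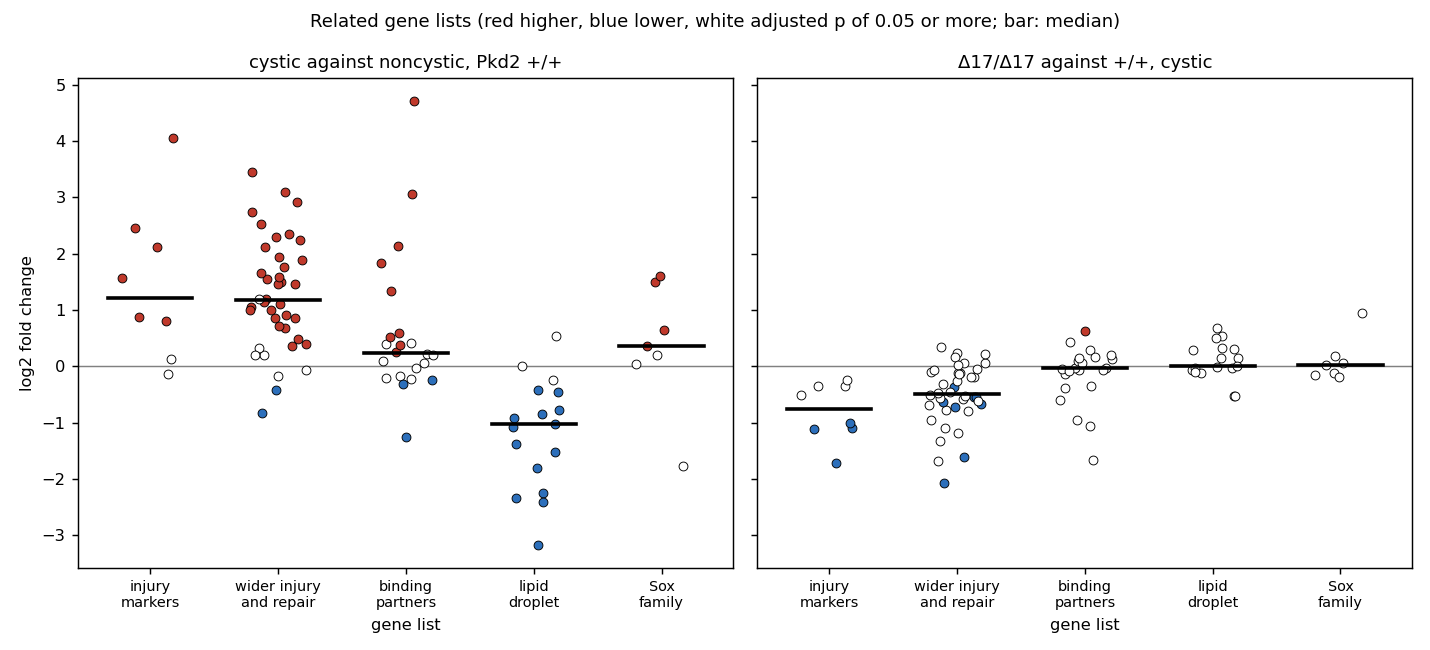
Log2 fold changes of the 8 injury markers and of 4 related gene lists, 1 point per gene, in cystic against noncystic *Pkd2* +/+ kidneys (left) and in cystic *Pkd2* Δ17/Δ17 against cystic *Pkd2* +/+ kidneys (right), with the list's median as a bar. On the left the medians are 1.22 for the markers, 1.17 for the wider list and -1.02 for lipid droplet genes, and on the right -0.76, -0.49 and 0.01.

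Of 22 genes whose products bind or process those of the markers, 9 rose and 3 fell in cystic *Pkd2* +/+ kidneys, with a median of 0.24. Over all genes tested the shares were 17% and 14.1%, against which 3 of 22 is no more. Only *Lrp2* was called between the cystic groups, with the losses given above. The median of this list between the cystic groups was -0.03. *Lrp2* is also among the 10 proximal tubule markers, and *Sox4* is in both the Sox family and the wider list.

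Markers of other cells moved in the same comparisons. Over all genes tested, 17% were called higher and 14.1% lower in cystic against noncystic *Pkd2* +/+ kidneys. Between the cystic groups 1.08% were called lower and 1.16% higher. All 8 macrophage genes rose in cystic *Pkd2* +/+ kidneys (median log2 fold change 1.80), and 4 of them, among them *Cd68* (log2 fold change -0.63, edgeR adjusted p = 0.0317), fell between the cystic groups (median -0.67). Their summed level was 146 to 155 CPM and 133 to 164 CPM in the noncystic groups, 350 to 493 CPM in cystic *Pkd2* +/+ mice, with mouse 26 the highest, and 257 to 335 CPM in cystic *Pkd2* Δ17/Δ17 mice, with mouse 30 the highest. Macrophages can express *Spp1* and *Cd44*, and leukocytes *Lcn2*, and the part of such cells in the levels of the markers was not tested. Neutrophils are the leukocytes that store lipocalin-2. The summed level of 8 neutrophil genes was 3.36 to 4.31 CPM in noncystic and 3.52 to 4.90 CPM in cystic *Pkd2* +/+ mice. In *Pkd2* Δ17/Δ17 mice it was 2.67 to 3.58 CPM in noncystic and 4.10 to 5.14 CPM in cystic kidneys, without overlap. Of the 6 neutrophil genes tested, 1 was called higher in cystic *Pkd2* Δ17/Δ17 kidneys, where 12.8% of all genes tested were, and none with *Pkd2* +/+. Of these 8 genes, *Mpo*, *Ly6g* and *Elane* had no reads in 9, 7 and 7 mice and at most 2, 2 and 4 reads in any mouse. *Cxcr2* and *Retnlg* had no reads in 4 and 3 mice. *Csf3r*, *S100a9* and *S100a8* had reads in all 12 mice, with at most 80, 27 and 23 in any mouse. The 7 endothelial genes, which mark cells that can display *Vcam1*, summed to 684 to 767 CPM and 674 to 721 CPM in the noncystic groups, 476 to 517 CPM in cystic *Pkd2* +/+ and 497 to 614 CPM in cystic *Pkd2* Δ17/Δ17 mice. Between the cystic groups 1 of the 7 was called higher and none lower, and the part of endothelial cells in the level of *Vcam1* was not tested.

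All 10 markers of the proximal tubule, the segment in which *Havcr1* is induced, fell in cystic *Pkd2* +/+ and in cystic *Pkd2* Δ17/Δ17 kidneys, with medians of -1.29 and -1.17. Of all genes tested, 14.1% were called lower and 17% higher with *Pkd2* +/+, and 10.2% and 12.8% with *Pkd2* Δ17/Δ17. Between the cystic groups 2 of the 10 were called higher with *Pkd2* Δ17/Δ17 and none lower, against 1.16% and 1.08% of all genes tested. The summed level of the 10 was 18050.3 to 19944.6 CPM in the noncystic mice, 6207 to 8082 CPM in cystic *Pkd2* +/+ and 8308 to 9933 CPM in cystic *Pkd2* Δ17/Δ17 mice. In the thick ascending limb, where lipocalin-2 is made after injury, the summed level of 4 markers was 1630 to 2324 CPM in cystic *Pkd2* +/+ and 3167 to 3252 CPM in cystic *Pkd2* Δ17/Δ17 mice, against 2643 to 3435 CPM in the noncystic mice. Most of this sum is *Slc12a1* and *Umod*, and of the 4 only *Slc12a1* was called between the cystic groups (log2 fold change 0.92, edgeR adjusted p = 0.000747). In cystic against noncystic *Pkd2* +/+ kidneys 2 of the 4 fell and 1, *Cldn16*, rose. The 6 collecting duct markers summed to 983 to 1111 CPM in noncystic and 1216 to 2714 CPM in cystic *Pkd2* +/+ mice. With *Pkd2* Δ17/Δ17 the sums were 766 to 1142 CPM and 1112 to 1750 CPM. Of the 6, 3 rose and none fell in cystic *Pkd2* +/+ kidneys, and none was called between the cystic groups. Fibroblast genes summed to 1713 to 2169 CPM in the noncystic mice and to 2846 to 4737 CPM in the cystic mice. Of the 7, 4 were called higher and 1 lower in cystic against noncystic *Pkd2* +/+ kidneys, so the list did not rise as one. *Pdgfra* stood at 132 ± 8.78 CPM in noncystic and 89.7 ± 23.7 CPM in cystic *Pkd2* +/+ mice. None of the 7 was called between the cystic groups. How these shifts in other cells bear on the markers was not tested.

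**Figure D5:**
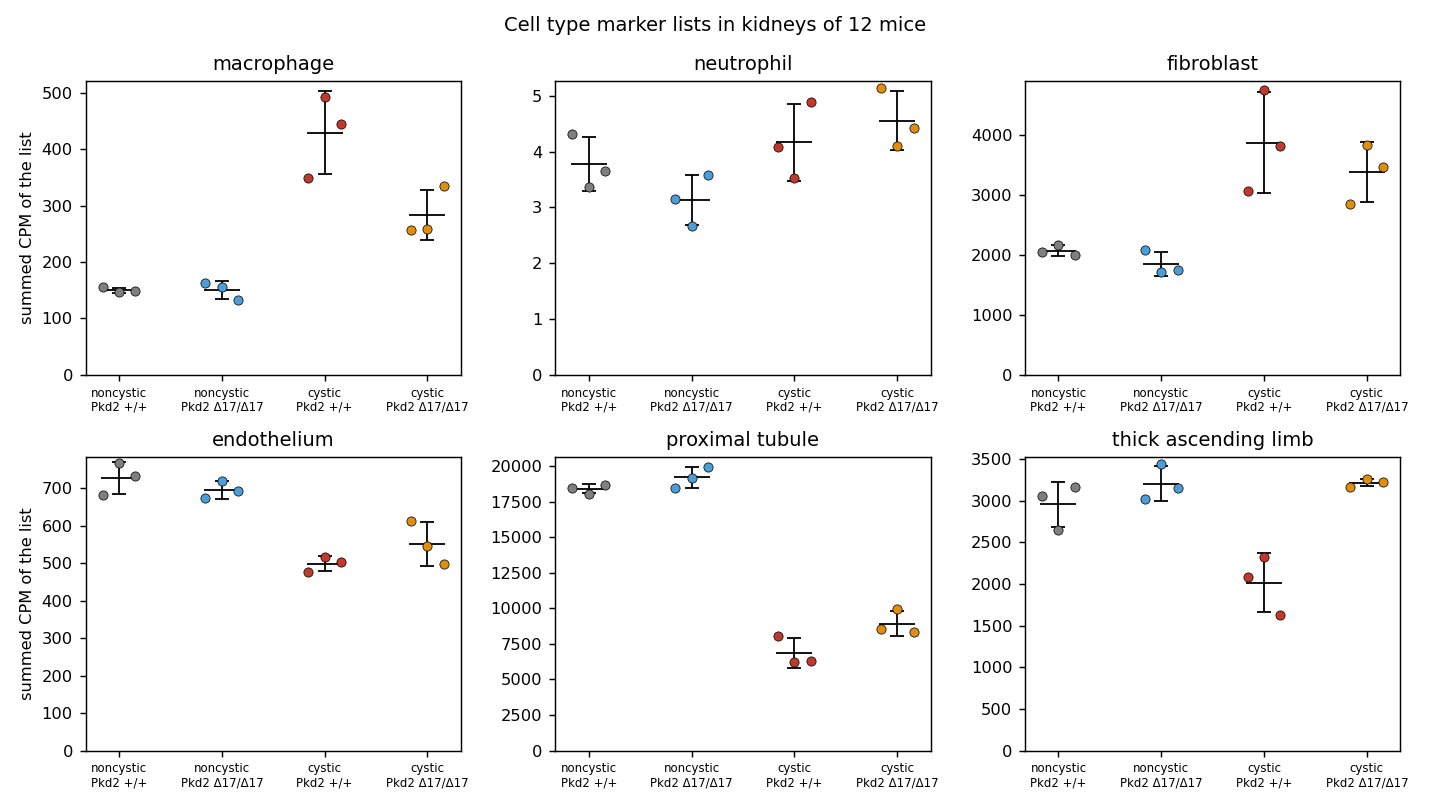
Summed CPM of marker lists for 6 cell types on linear axes from 0, with 1 point per mouse and the mean ± SD of 3 mice in black. The macrophage sum is 350 to 493 CPM in cystic *Pkd2* +/+ and 257 to 335 CPM in cystic *Pkd2* Δ17/Δ17 mice. The neutrophil sum is 3.52 to 4.90 CPM and 4.10 to 5.14 CPM in the same groups, against 3.36 to 4.31 CPM and 2.67 to 3.58 CPM in the noncystic groups.

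The genes whose levels over the 12 mice were most like those of a marker were found by the smallest root mean square difference of log2CPM, each gene centred on its own mean, with 13848 abundant genes searched, those whose log2CPM averaged 1 or more. For *Havcr1* they were *Mgl2*, *Ciita* and *Ccr2*, genes of myeloid and antigen-presenting cells, at differences of 0.352, 0.396 and 0.4. For *Clu* they were *F13a1* (0.203), *Csf1* and *Ppfia4*, for *Lcn2* *Ctnnd2* (0.324), *Col12a1* and *Socs3*, and for *Spp1* *Irf5* (0.163), *Rab32* and *Map4k1*. Those nearest to *Vcam1* were *Mx2* (0.207), *Il33* and *Mfsd7a*, and those nearest to *Cd44* were *Ms4a6b* (0.191), *Epsti1* and *Eef2k*. *Sox9* was nearest to *Ppp1r13l* (0.198), *Artn* and *Rhbdf2*, and *Plin2* to *Eif2b4* (0.0916), *Mrpl38* and *Blvrb*.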

How the data were processed

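Kidney RNA of 12 mice was sequenced in 4 groups of 3. The authors trimmed the reads (Trim Galore 0.6.3), aligned them to GRCm38 (STAR 2.5.3a) and counted them per gene; the deposited values are raw counts, 1 column per mouse. The strand setting of the counting is not given in the sources used here. Genes without a name were 343 of 54532, with 0.0225% of the reads. The mice of a group carry separate labels, and p-values measure the spread between them.

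Counts were tested with edgeR 4.0.16 in R 4.3.3 (TMM factors, quasi-likelihood test, 1 mean per group, 8 residual degrees of freedom), for the 24642 genes whose log2CPM averaged -3 or more (prior count 2). Calls were made at a Benjamini-Hochberg adjusted p under 0.05. All groups shared 1 estimate of the spread for each gene, so SEs, intervals and calls between the cystic groups also draw on the noncystic mice. For the 4 markers called there, the SD of log2CPM was larger in cystic *Pkd2* Δ17/Δ17 than in cystic *Pkd2* +/+ mice. It was 0.531 and 0.157 for *Clu*, 0.725 and 0.32 for *Lcn2*, 0.947 and 0.573 for *Havcr1* and 0.275 and 0.206 for *Vcam1*. For *Sox9* and *Cd44* it was smaller. The test takes no account of such differences. The median SE of a log2 fold change was 0.112 over the 13848 genes whose log2CPM averaged 1 or more. CPM and CPM per kilobase of exon were computed from the counts. Intervals are at 95%. The study's own test, limma-trend on library totals, was an alternative, beside DESeq2, other scalings and cutoffs, fits of the compared groups alone, *Xist* as a covariate, and leaving out each mouse. The tests of cystic against noncystic *Pkd2* +/+ kidneys were checked on simulated data in which each gene had the same spread in all groups. The other comparisons were not simulated.

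The 8 markers and all gene lists were chosen with earlier results of these data known. Beside the markers, genes were named by a rule: the 3 rising and 3 falling genes of each related list with the smallest adjusted p and no overlap of the groups, those of all these lists likewise between the cystic groups, receptors and family members of the markers, and the 3 genes nearest to each marker. One gene that the rule names is not reported here. Symbols were matched to GENCODE M21, which held 99.93% of the identifiers. The seed match GCACTTT was searched on the transcript strand of the longest annotated 3′-UTR of each gene.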

Additional observations from a re-analysis of the deposited data

How the results depend on the processing

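No paired analysis was possible because the groups share no replicate numbers. In cystic against noncystic *Pkd2* +/+ kidneys the count of called markers, 6, was 6 under every other setting and 5 to 6 when a mouse was left out, and in *Pkd2* Δ17/Δ17 mice the count of 5 was 5 to 6 and 4 to 5. Between the cystic groups the count of 4 fell to 2 with *Xist* as a covariate and to 1 in a fit of these groups alone, and ran from 1 to 5 when a mouse was left out. For the interaction it went from 0 to 1 with DESeq2, to 4 without a cutoff on low counts, and from 0 to 3 without a mouse. In noncystic kidneys it stayed at 0. Without the cutoff, the interaction values of *Lcn2* and *Clu* hardly moved. Their edgeR adjusted p-values nevertheless fell from 0.33 to 1.77e-21 and from 0.156 to 5.65e-13. In the main edgeR fit the unadjusted p-values were 0.00369 and 0.00038, so calls made without the cutoff are weak evidence. Fewer mice and fewer groups give fewer degrees of freedom, and a fit of the cystic groups alone takes its spread from these groups only. Otherwise the cause of the changed counts was not tested.

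Signs turned only for values that were not called. *Plin2* in cystic against noncystic *Pkd2* +/+ kidneys was 0.0380 with limma and 0.0260 with library totals, and *Plin3* was -0.0217 with DESeq2, -0.0215 with its size factors and -0.00535 in a fit of these groups alone. Between noncystic groups *Sox9* was -0.00903 with limma, and *Spp1* -0.00321 with DESeq2, -0.00320 with its size factors and -0.0177 with *Xist*. Leaving out a mouse gave -0.0535 to 0.0531 for *Plin3* and -0.0182 to 0.34 for *Vcam1* (cystic against noncystic, *Pkd2* +/+), -0.57 to 0.55 for *Havcr1* (*Pkd2* Δ17/Δ17) and -0.58 to 0.0267 for the *Sox9* interaction. Between noncystic groups it gave -0.38 to 0.23 for *Sox9*, -0.17 to 0.0815 for *Plin2*, -0.0770 to 0.0567 for *Spp1*, -0.0155 to 0.12 for *Clu*, -0.19 to 0.17 for *Vcam1* and -0.17 to 0.36 for *Cd44*.

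Over all genes, the 552 called between the cystic groups became 1128 with DESeq2, 1639 without a cutoff, 169 in a fit of these groups alone, 864 without mouse 25, and 127, 122 and 118 without mouse 27, 28 or 29. The 1 called between noncystic groups became 3, 124 and 2 under the first 3 of these, 2 without mouse 21 and 0 without mouse 22. The 3 of the interaction became 134 with DESeq2, 566 without a cutoff, 9 with limma, 8 with library totals, 12 with *Xist*, 0 with at least 10 counts in every mouse, 8, 10, 60, 48 and 58 without mouse 20, 22, 25, 26 or 30, 1 without mouse 21 or 28, and 0 without mouse 19, 23, 24, 27 or 29. *Havcr1* and *Sox9* had at most 168 and 79 reads in a mouse, the fewest of the markers.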
